A study of Homo sapiens with 6 samples.

Results

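The AP-1 subunits FOS, FOSB, FOSL1, FOSL2, JUN, JUNB and JUND, together with EGR1, ATF3 and MYC, are transcription factors, many of them switched on by growth factor and stress signals. Their transcripts were taken by gene symbol from RNA-Seq of PC-9, a line of human lung adenocarcinoma that carries an exon 19 deletion in EGFR. They made up 10 of the 26334 gene symbols and 22 of the 51398 isoforms quantified, and all 10 passed the filter on low counts that left 14217 genes for testing. PC-9 cells carried a scrambled control shRNA (shScr) or 1 of 2 shRNAs against the splicing factor RBM10 (shRBM10#1 and shRBM10#2), with 2 libraries of bulk total RNA per condition. All cells were grown in RPMI with 10% FBS and received no treatment, so none of the conditions included an EGFR inhibitor. The study's methods call the control parental PC-9, whereas the labels of the control libraries read shScr, and the labels were followed. Whether each shRNA line was a pool or a clone, and whether the 2 libraries came from separate cultures, was not given in the sources used here, so the tests measure the spread between libraries, which may be technical. In bulk RNA, fewer cells with a transcript and less transcript per cell cannot be told apart.

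AP-1 is a pair of proteins, a FOS family member with a JUN family member or a pair of JUN family members, which meet through leucine zippers and bind DNA. FOS, FOSB and EGR1 are classical immediate early genes, which the ERK pathway turns on within minutes through serum response factor and its partners, while FOSL1 and FOSL2 follow later and persist while ERK stays active. EGFR lies upstream of this pathway. ATF3 is a stress-induced member of the ATF/CREB family that can pair with JUN proteins, and MYC, whose partner is MAX, drives ribosome production and growth.

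The promoters of these genes hold some of the short DNA words that such factors read. RefSeq promoter windows (GRCh38.p14), each running from 250 bases before to 50 bases after a transcription start, were searched on both strands for TGACATCA, TGACGTCA, TGACTCA and the CArG box to which serum response factor binds. A window was at hand for 8 members, with FOSL1 not found and MYC not analysed here. The word TGACATCA, held by 2.61% of the 35116 windows, was found in 1 window each of JUN and ATF3. The isoform that starts at each window is not given here. The word TGACGTCA, in 1.85% of windows, was found for JUND, and TGACTCA, in 4.95%, for FOSL2. EGR1 was the only one of the 8 with a CArG box inside these windows, which 1.29% of windows held, and it had 2. Sequence outside the windows was not searched, so a box farther from a start would be missed. The matched words are in capitals in their surroundings, 5′ to 3′ on the gene's strand:
JUN, chr1:58784096-58784125, minus strand, word from -67 to -60: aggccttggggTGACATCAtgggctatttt
ATF3, chr1:212565273-212565302, plus strand, word from -123 to -116: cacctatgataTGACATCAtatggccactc
JUND, chr19:18281804-18281833, minus strand, word from -200 to -193: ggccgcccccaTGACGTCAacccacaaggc
FOSL2, chr2:28392851-28392880, plus strand, word from 5 to 11 after the start: tgccattgtagTGACTCAtctcgggcagag
EGR1, chr5:138465364-138465393, plus strand, word from -105 to -96: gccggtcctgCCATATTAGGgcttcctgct
EGR1, chr5:138465386-138465415, plus strand, word from -83 to -74: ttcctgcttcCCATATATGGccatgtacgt
These matches are letters in a window, and no binding was measured. No window of FOS, FOSB or JUNB held any of the 4 words within these limits.

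Library totals ranged from 31953729 to 37557507 expected counts, and RBM10 itself was checked first. RBM10 stood at 83.2 and 86.2 CPM (counts scaled to the library total) in shScr, 59.8 and 56.4 under shRBM10#1, and 27.2 and 26.9 under shRBM10#2, so its transcript remained at 68.6% and 31.9% of shScr. A control library stood apart in fragment size: the lengths implied by the effective lengths were 231.2 nt in shScr replicate 2 and 264.9 to 281.2 nt in the other libraries. An offset for effective length changed no call among the 10 genes except that of MYC between the shRNAs, given below. Epithelial markers were high (KRT8 at 8681 to 11110 CPM, EPCAM at 368 to 448 CPM). Of 6 such markers 1 rose with shRBM10#1, where 7.13% of all tested genes rose and 6.91% fell. With shRBM10#2, 1 rose and 1 fell, where 12% of all tested genes rose and 13.9% fell. KRT19 was the marker that rose with shRBM10#1 (5397 and 5500 CPM) and fell with shRBM10#2 (3611 and 3800 CPM), from 4633 and 4344 CPM in shScr. Of 9 markers of blood, endothelial and fibroblast cells, PTPRC, CD3E, LYZ, COL1A2 and PDGFRB had at most 12 expected counts in any library. The summed level of the 9 was 29.4 CPM in each shScr library, 39.1 and 45.5 CPM under shRBM10#1, and 28.6 and 29.2 CPM under shRBM10#2. Of the 4 that passed the filter, CDH5 and PECAM1 rose with shRBM10#1, and VWF and COL1A1 fell with shRBM10#2. The endothelial cadherin gene CDH5 was at 12.6 and 14.5 CPM in shScr, 22.4 and 29.97 CPM under shRBM10#1, and 16.0 and 14.9 CPM under shRBM10#2. VWF, also endothelial, was at 1.29 and 1.25 CPM in shScr, 1.18 and 0.977 CPM under shRBM10#1, and 0.754 and 0.548 CPM under shRBM10#2. The calls of PECAM1, VWF and COL1A1 were lost with DESeq2 in place of edgeR. The part of these markers in the differences below was not tested.

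JUNB was the most abundant of the 10 transcripts and FOSB the least, in all 3 conditions. On the TPM scale, which corrects for length and so allows genes to be set side by side, JUNB averaged 219 ± 13 TPM (SD, n = 2) in shScr, rank 641 among all genes. MYC followed at 103 ± 0.79 TPM and JUN at 77.4 ± 7.3 TPM. JUND (54.0 ± 0.71 TPM), FOSL1 (49.1 ± 1.2 TPM) and FOSL2 (47.4 ± 7.2 TPM) came next, and the library values of FOSL1 and FOSL2 overlapped. FOS, the archetype of the immediate early genes, lay lower at 16.7 ± 0.028 TPM, with EGR1 at 10.7 ± 0.31 TPM and ATF3 at 8.34 ± 0.88 TPM. FOSB was the scarcest at 0.78 ± 0.014 TPM. With shRBM10#1 the order changed only in that FOSL2 (36.1 ± 2.2 TPM) passed FOSL1 (28.4 ± 3.5 TPM), and JUN and JUND overlapped. With shRBM10#2 the order was that of shScr, with FOSL1 at 33.4 ± 0.46 TPM and FOSL2 at 27.9 ± 0.77 TPM.

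**Figure D1:**
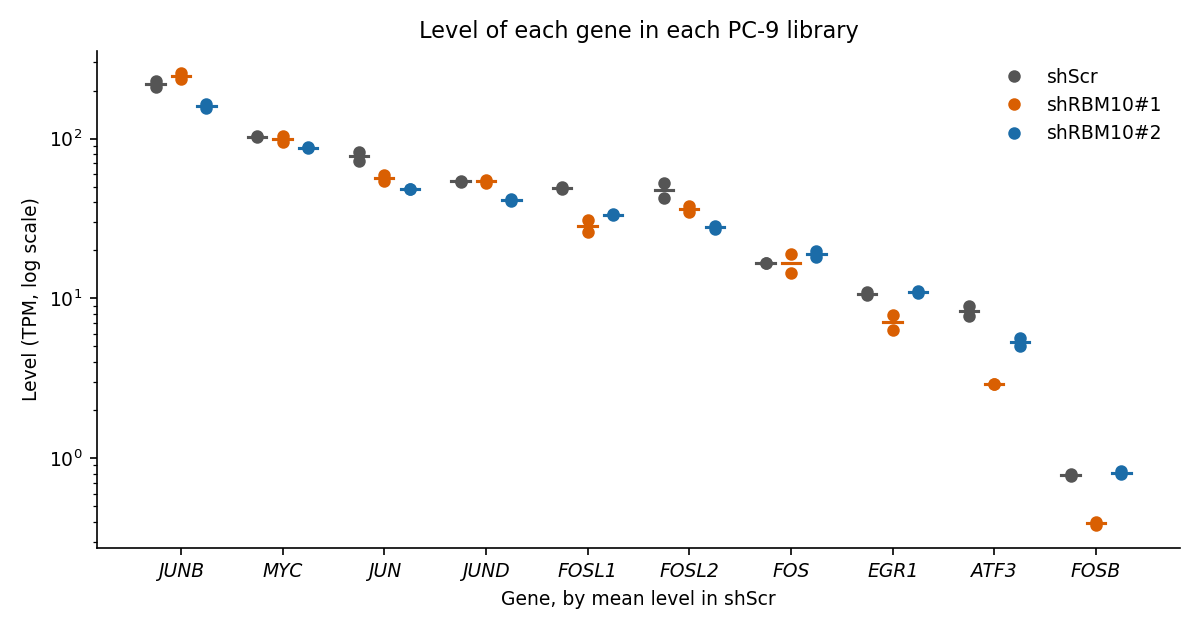
Level of each of the 10 genes in TPM (log axis), with 1 point per library and a short line at the mean of the 2 libraries of a condition. ATF3 and FOSB sit lowest with shRBM10#1, JUNB and JUND sit lowest with shRBM10#2, and FOSL1, FOSL2 and JUN lie below shScr with either shRNA.

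FOSL1, FOSL2, JUN and ATF3 were lower than in shScr with either shRNA, and the other 6 genes differed by shRNA or passed neither test. With shRBM10#1, 6 of the 10 genes fell (FOSB, FOSL1, FOSL2, JUN, EGR1 and ATF3) and none rose, where 6.91% of all tested genes fell and 7.13% rose. With shRBM10#2, 6 fell again (FOSL1, FOSL2, JUN, JUNB, JUND and ATF3) and none rose, where 13.9% of all genes fell and 12% rose. The median log2 fold change (FC) of the 10 was -0.32 with shRBM10#1 and -0.37 with shRBM10#2, against medians of 0.0079 and 0.0054 over all genes. These comparisons share the shScr libraries, so they are not independent of each other. Between the shRNAs, 5 genes were lower with shRBM10#2 (14.5% of all genes were) and 3 were higher (11% of all genes were). A change was called at a false discovery rate (FDR) below 0.05 in the edgeR quasi-likelihood test, adjusted over the 14217 genes. An FDR below 0.05 with a fall of more than 1 on the log2 scale was reached by ATF3 alone, with shRBM10#1, where 1.07% of all genes did so. With shRBM10#1, the falls of FOSL1, JUN and ATF3 were called whichever library was left out. Those of FOSB, FOSL2 and EGR1 were each lost without some of the libraries. With shRBM10#2, the falls numbered 3 without shScr replicate 1, 7 without shScr replicate 2 and 4 without either shRBM10#2 library.

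**Figure D2:**
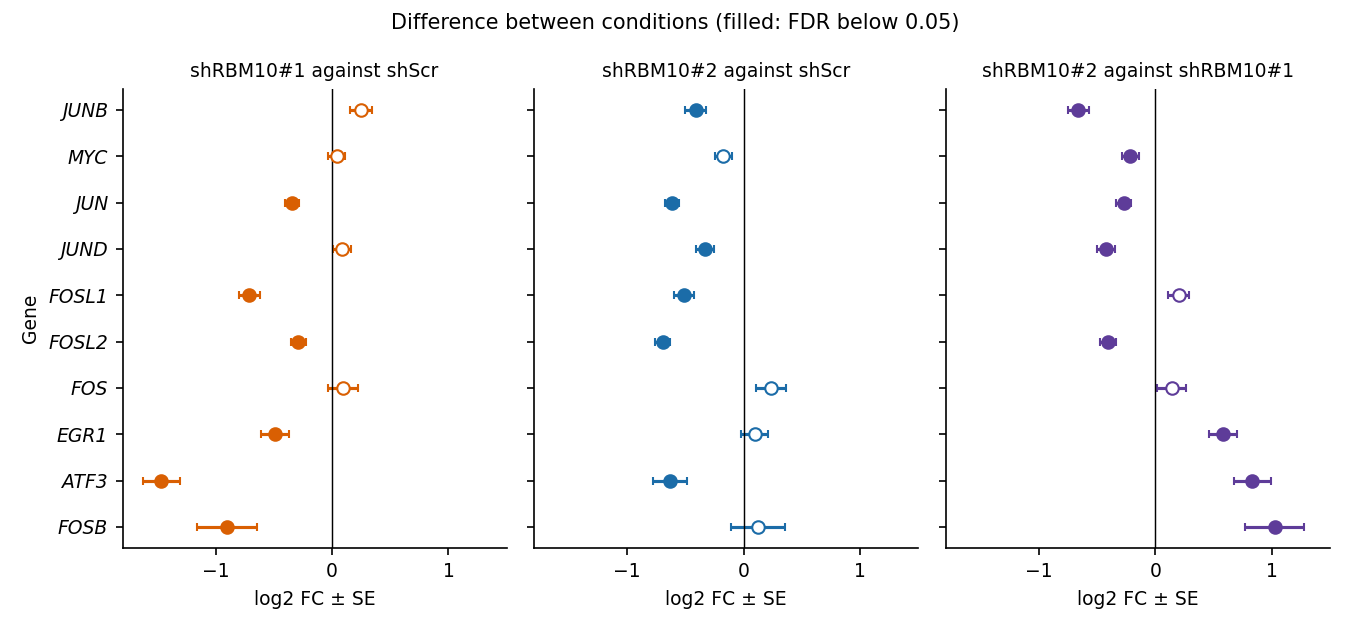
Log2 FC with its standard error for each gene in the 3 comparisons of 2 conditions, with filled points where the FDR was below 0.05. FOSL1, FOSL2, JUN and ATF3 are filled left of 0 in both comparisons with shScr, and FOSB, EGR1 and ATF3 are filled right of 0 between the shRNAs.

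FOSL1, which encodes FRA-1, a FOS protein whose level follows sustained ERK activity, fell with each shRNA. Its level was 51.1 and 44.0 CPM in shScr, 30.9 and 27.1 CPM under shRBM10#1, and 33.0 and 33.6 CPM under shRBM10#2. The KD libraries all lay below both shScr libraries. The log2 FC was -0.71 ± 0.090 (SE, FDR 0.000266) with shRBM10#1 and -0.51 ± 0.089 (FDR 0.00176) with shRBM10#2. Between the shRNAs the difference was not called (0.20, 95% interval 0.0049 to 0.40, FDR 0.123). Both falls held in all 13 alternative analyses.

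FOSL2, encoding the related FRA-2, fell more with shRBM10#2 than with shRBM10#1. It stood at 110.3 and 119 CPM in shScr, 96.3 and 91.5 CPM under shRBM10#1, and 69.3 and 72.3 CPM under shRBM10#2, so the 3 conditions did not overlap. The log2 FC was -0.29 ± 0.067 (FDR 0.0126) with shRBM10#1, and this call was lost without shScr replicate 2 (-0.23, FDR 0.102) or without shRBM10#1 replicate 2 (-0.25, FDR 0.0585). With shRBM10#2 it was -0.70 ± 0.068 (FDR 8.52e-05). The direct difference of shRBM10#2 from shRBM10#1 was -0.41 ± 0.068 (FDR 0.00141), and the calls for shRBM10#2 against shScr and against shRBM10#1 held in all 13 alternatives.

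FOS did not pass in any comparison. Its level was 22.1 and 19.5 CPM in shScr, 18.6 and 25.6 CPM under shRBM10#1, and 23.4 and 25.5 CPM under shRBM10#2, and the shRBM10#1 libraries lay on either side of shScr. The log2 FC against shScr was 0.10 with shRBM10#1 (95% interval -0.18 to 0.37, FDR 0.676), turning to -0.16 without its replicate 2, and 0.24 with shRBM10#2 (-0.039 to 0.51, FDR 0.193). Between the shRNAs it was 0.14 (FDR 0.443), which became 0.39 (FDR 0.0213) without shRBM10#1 replicate 2 and -0.069 without shRBM10#1 replicate 1.

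FOSB, the least abundant of the family, was at 53.4% of its shScr level with shRBM10#1. Its level was 1.94 and 1.64 CPM in shScr, 0.959 and 0.95 CPM under shRBM10#1, and 1.99 and 1.91 CPM under shRBM10#2. These values rest on 63 and 54 expected counts in shScr, 30 and 35 under shRBM10#1, and 74 and 73 under shRBM10#2. The log2 FC was -0.90 ± 0.26 (FDR 0.0349) with shRBM10#1, a call lost in 9 of 13 alternatives, among them each library left out in turn, at FDR values of 0.0649 to 0.144. With shRBM10#2 it was 0.12 (95% interval -0.39 to 0.63, FDR 0.743). The difference between the shRNAs, 1.03 ± 0.25 (FDR 0.011), was lost without shRBM10#2 replicate 1 (FDR 0.0792) or replicate 2 (FDR 0.0697).

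JUN, the founding member of its family, fell with each shRNA. It stood at 155 and 154 CPM in shScr, 125 and 118 CPM under shRBM10#1, and 100.5 and 101 CPM under shRBM10#2, with no overlap between conditions. The log2 FC was -0.34 ± 0.061 (FDR 0.00264) with shRBM10#1 and -0.62 ± 0.062 (FDR 9.23e-05) with shRBM10#2, and both falls held in all 13 alternatives. JUN was lower with shRBM10#2 than with shRBM10#1 by a log2 FC of -0.27 ± 0.062 (FDR 0.00737), a call lost without shRBM10#2 replicate 1 (FDR 0.103) or replicate 2 (FDR 0.107).

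JUNB and JUND, which often act against JUN in growth control, separated the shRNAs. JUNB was at 247 and 201 CPM in shScr, 249.8 and 282 CPM under shRBM10#1, and 163 and 174 CPM under shRBM10#2. It fell with shRBM10#2 (-0.41 ± 0.092, FDR 0.00673), and that call was lost without shScr replicate 1 (-0.26, FDR 0.0717) or without shRBM10#2 replicate 1 (-0.37, FDR 0.0841). With shRBM10#1 its log2 FC was 0.25 ± 0.092 (FDR 0.0943), which passed without shScr replicate 1 (0.40, FDR 0.0226) or without shRBM10#1 replicate 1 (0.33, FDR 0.0345), and with no filter on low counts (FDR 0.0115). The gap between the shRNAs was the steadier value, at -0.66 ± 0.092 (FDR 0.000524), called in all 13 alternatives.

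JUND was at 64.5 and 56.0 CPM in shScr, 64.1 and 63.7 CPM under shRBM10#1, and 48.3 and 47.2 CPM under shRBM10#2. Both shRBM10#2 libraries lay below the 4 others. The log2 FC with shRBM10#2 was -0.34 ± 0.077 (FDR 0.0077), lost without shScr replicate 1 (-0.23, FDR 0.0675), shRBM10#2 replicate 1 (FDR 0.065) or shRBM10#2 replicate 2 (FDR 0.104). With shRBM10#1 it was 0.084 (95% interval -0.081 to 0.25, FDR 0.509), which turned to -0.013 without shScr replicate 2. Between the shRNAs it was -0.42 ± 0.077 (FDR 0.00233), lost without shRBM10#2 replicate 2 (FDR 0.0518).

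The makeup of the FOS and JUN families was then summed on the TPM scale, as a description of levels. TPM carries no TMM scaling, and relative to shScr the KD means of these genes were lower by TPM than by CPM. With shRBM10#1, JUNB was at 112% of its shScr mean by TPM and 119% by CPM, and JUND at 99.96% and 106%. The 4 FOS family transcripts together gave 114 ± 6.0 TPM (SD, n = 2) in shScr, 81.6 ± 2.3 TPM with shRBM10#1 and 81.1 ± 2.3 TPM with shRBM10#2. FOSL1 and FOSL2 supplied 43.2% and 41.5% of the family in shScr, 34.8% and 44.2% with shRBM10#1, and 41.2% and 34.4% with shRBM10#2. The share of FOS was 14.7% in shScr, 20.5% with shRBM10#1 and 23.4% with shRBM10#2. The JUN family summed to 350.3 ± 6.4 TPM in shScr, 357 ± 9.8 TPM with shRBM10#1 and 249 ± 5.7 TPM with shRBM10#2. The 2 shRBM10#2 libraries had the lowest JUN family totals. JUNB was 62.5%, 68.9% and 64.0% of it in the 3 conditions. The ratio of JUNB to JUN was 3.16 and 2.54 in shScr, 3.95 and 4.70 with shRBM10#1, and 3.20 and 3.38 with shRBM10#2. Both shRBM10#1 libraries thus had the highest share of JUNB, while the summed FOS family was nearly equal with the 2 shRNAs and made of different proportions of FOSL1 and FOSL2.

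**Figure D3:**
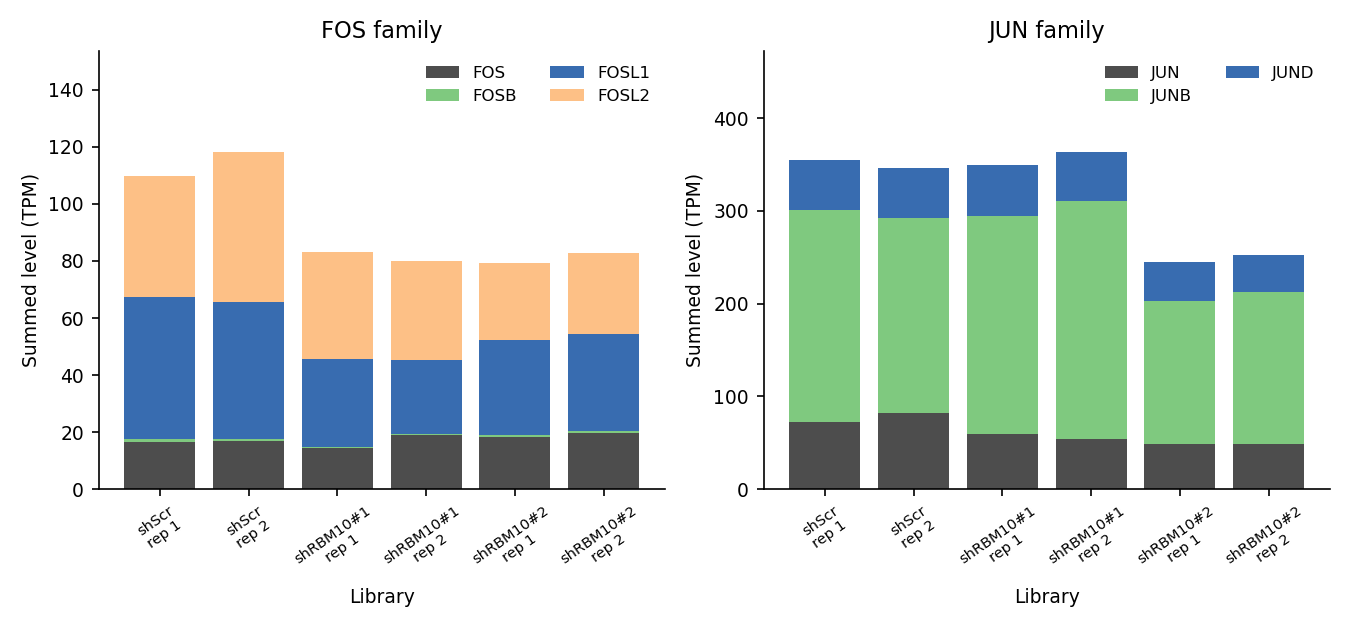
Summed TPM of the FOS family (left) and the JUN family (right) in each library, stacked by gene. The FOS family bars of the 4 KD libraries are shorter than both shScr bars, and the JUN family bars are shorter in the 2 shRBM10#2 libraries.

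ATF3 had the widest range of the 10 genes. Its level was 11.3 and 8.60 CPM in shScr, 3.55 and 3.64 CPM under shRBM10#1, and 6.84 and 6.004 CPM under shRBM10#2. The conditions did not overlap, and ATF3 remained at 36.2% of shScr with shRBM10#1 and 64.5% with shRBM10#2. The log2 FC was -1.47 ± 0.16 (FDR 8.96e-05) with shRBM10#1, a call that held in all 13 alternatives. With shRBM10#2 it was -0.63 ± 0.15 (FDR 0.00842), lost without shScr replicate 1 (-0.42, FDR 0.0916) or shRBM10#2 replicate 2 (-0.54, FDR 0.106). The shRNAs differed by 0.84 ± 0.16 (FDR 0.00327), called in all 13 alternatives. The shRNA with the weaker KD of RBM10 was the one with the lower ATF3.

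RSEM placed nearly all ATF3 reads of the shScr libraries on NM_001674 (358 and 283 expected counts). The proteins that the ATF3 isoforms encode were not compared here. NM_001030287 had 0 expected counts in each control library, 9.12 and 26.5 under shRBM10#1, and 18.8 and 85.7 under shRBM10#2. The replicates of a KD condition thus differed several fold, and a 0 in a library allows up to 3 counts. ATF3 was not called for isoform usage with shRBM10#1 (edgeR diffSpliceDGE, FDR 0.176) or with shRBM10#2 (FDR 0.0584). Across the genes with at least 2 isoforms tested, 0.172% were called with shRBM10#1 and 2.75% with shRBM10#2. A further 3 isoforms appeared in 1 condition each, at 7.34 to 19.5 counts where present, and NM_001040619 was at 0 in every library.

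**Figure D4:**
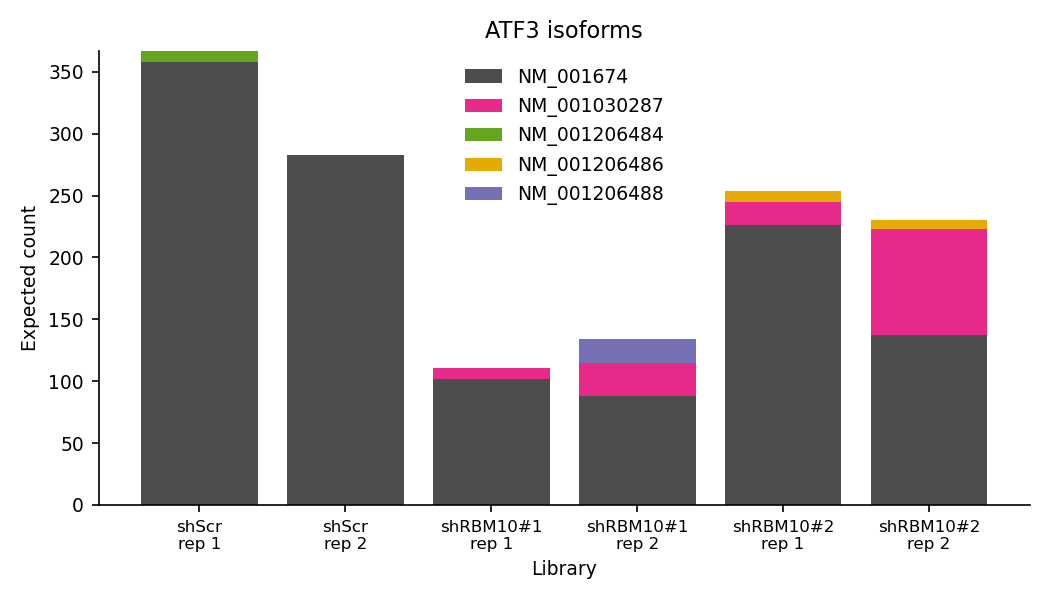
Expected counts of the ATF3 isoforms in each library, stacked from 0. NM_001674 makes up 97.6% and 100% of the shScr bars, and NM_001030287 appears in the 4 KD libraries at 7.41% to 37.2% of the bar.

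FOSL1 and JUND, the other members tested for isoform usage, were not called. FOSL1 reads lay mainly on NM_005438, with 77.3% to 88.1% of its counts per library, and its usage FDR was 1 with either shRNA. The 2 isoforms of JUND have the same listed length of 1963 nt and received 50% of the reads each in every library, so these counts cannot tell them apart. FOSB reads lay on NM_006732, except for 6.10 counts of NM_001114171 in shScr replicate 2, and its usage was not tested. FOS, FOSL2, JUN, JUNB, EGR1 and MYC had 1 isoform each in the tables.

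EGR1, a zinc finger factor and the classical serum response target, fell with shRBM10#1 alone. It was at 21.9 and 18.4 CPM in shScr, 12.4 and 16.2 CPM under shRBM10#1, and 21.2 and 21.8 CPM under shRBM10#2. The log2 FC with shRBM10#1 was -0.49 ± 0.12 (FDR 0.019), lost without shScr replicate 1 (-0.36, FDR 0.143) or shRBM10#1 replicate 1 (-0.32, FDR 0.0777). With shRBM10#2 it was 0.093 (95% interval -0.16 to 0.35, FDR 0.606), turning to -0.028 without shScr replicate 2. The difference between the shRNAs was 0.58 ± 0.12 (FDR 0.00465), called in all 13 alternatives.

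MYC passed neither test against shScr. It was at 152 and 132 CPM in shScr, 149 and 142 CPM under shRBM10#1, and 124 and 126 CPM under shRBM10#2. With shRBM10#1 the log2 FC was 0.038 (95% interval -0.12 to 0.20, FDR 0.778), turning to -0.058 without shScr replicate 2. With shRBM10#2 it was -0.18 (-0.34 to -0.019, FDR 0.094), which passed without shScr replicate 2 (-0.27, FDR 0.0297). MYC was lower with shRBM10#2 than with shRBM10#1 by -0.22 ± 0.073 (FDR 0.0469), and this call was lost in 5 of 13 alternatives, among them the offset for effective length (FDR 0.0626) and the removal of shRBM10#1 replicate 1 (FDR 0.129), shRBM10#2 replicate 1 (FDR 0.254) or shRBM10#2 replicate 2 (FDR 0.228).

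The study's methods compare a KD group with a control group in edgeR, on isoforms and with an absolute log2 FC above 1. Here the 4 KD libraries were taken as 1 group against shScr on gene totals, without that limit on fold. FOSL1 was the only member called (-0.61 ± 0.11, FDR 0.0345), where 1.08% of all genes were called lower and 0.542% higher. The fall of FOSL1 was lost without shScr replicate 1 (FDR 0.382), shScr replicate 2 (FDR 0.255) or shRBM10#1 replicate 2 (FDR 0.0548). JUN had a log2 FC of -0.47 (FDR 0.0597), ATF3 of -0.99 (FDR 0.104) and FOSL2 of -0.48 (FDR 0.122). The spread of this test includes the gap between the shRNAs, and RBM10 itself, at -0.99, did not pass it (FDR 0.146). When the mean of the 2 shRNA coefficients was tested in its place, 4 members passed. So did 2610 of the 14217 genes tested (1400 lower and 1210 higher), against 230 in the pooled test.

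Among 15 tested AP-1 partners outside the 10 genes, 5 fell with shRBM10#1 and 6 with shRBM10#2, and none rose, where 6.91% and 13.9% of all genes fell and 7.13% and 12% rose. The JUN dimerization protein gene JDP2 had a log2 FC of -0.41 ± 0.077 (FDR 0.00353) with shRBM10#1 and -0.55 ± 0.077 (FDR 0.000596) with shRBM10#2. The small MAF factor gene MAFF had -0.42 ± 0.071 (FDR 0.00177) and -0.45 ± 0.070 (FDR 0.00093). MAFK, a related small MAF gene, had -0.27 (FDR 0.0208, lost without any 1 library other than shRBM10#1 replicate 1, at up to FDR 0.112) and -0.54 (FDR 0.00038). DDIT3, encoding the stress factor CHOP, was called with shRBM10#1 alone (-0.65 ± 0.18, FDR 0.0316), a call lost with the offset for effective length and without shScr replicate 1 or either shRBM10#1 library. The list's median log2 FC was -0.20 and -0.17. With single libraries left out, 3 to 5 of these genes fell with shRBM10#1 and 3 to 8 with shRBM10#2.

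Of 23 other immediate early genes tested, 5 fell with shRBM10#1 and 8 with shRBM10#2, where 6.91% and 13.9% of all genes did, with median log2 FCs of -0.017 and -0.20. With each shRNA 2 of them rose, a share near that of all genes (7.13% and 12%). KLF4, a Krüppel-like factor of epithelial differentiation, was at 63.3 and 56.2 CPM in shScr, 30.4 and 32.9 CPM under shRBM10#1, and 35.1 and 32.3 CPM under shRBM10#2. Its log2 FC was -0.91 ± 0.083 (FDR 2.91e-05) and -0.83 ± 0.082 (FDR 9.2e-05). GADD45A, a growth arrest gene, fell by 0.84 (FDR 6.86e-05) and by 0.49 (FDR 0.00186) on the log2 scale. The kinase gene PLK3 fell by 0.79 (FDR 0.00376) and by 0.52 (FDR 0.0208, lost without any 1 of the 4 libraries compared), and KLF6 by 0.31 (FDR 0.022, lost in 5 of 13 alternatives, each without 1 library) and by 0.23 (FDR 0.0477, lost in 8). BTG2, an antiproliferative gene, rose with each shRNA (0.51 and 0.51, FDR 0.0142 and 0.00936), and these calls were lost without either shScr library, without shRBM10#1 replicate 2 for the first and without either shRBM10#2 library for the second. RHOB rose with shRBM10#1 (0.38, FDR 0.0148, lost without shScr replicate 2 or shRBM10#1 replicate 2), PLK2 rose with shRBM10#2 (0.22, FDR 0.0268, lost without any 1 of the 4 libraries compared), and IER2 fell with shRBM10#2 (-0.55, FDR 0.000993).

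Of 15 tested genes known as AP-1 targets, 1 rose and 6 fell with shRBM10#1, and 2 rose and 5 fell with shRBM10#2, with medians of -0.24 and -0.052. Of all genes, 7.13% rose and 6.91% fell with shRBM10#1, and 12% rose and 13.9% fell with shRBM10#2. HBEGF, which encodes an EGFR ligand, was at 21.5 and 17.7 CPM in shScr, 4.16 and 3.56 CPM under shRBM10#1, and 7.46 and 9.16 CPM under shRBM10#2. No library of one condition overlapped another. Its log2 FC was -2.35 ± 0.15 (FDR 2.07e-06) and -1.23 ± 0.13 (FDR 0.000125), and the shRNAs differed by 1.11 ± 0.15 (FDR 0.000518).

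PLAU, the urokinase gene, was at 53.4 and 48.5 CPM in shScr, 23.5 and 26.2 CPM under shRBM10#1, and 39.9 and 37.2 CPM under shRBM10#2, with log2 FCs of -1.03 (FDR 1.45e-05) and -0.40 (FDR 0.0039). The second call was lost without shRBM10#2 replicate 2, at an FDR of 0.0791. VEGFA, an angiogenic factor gene, had -0.24 (FDR 0.0452, lost in 8 of 13 alternatives) and -0.40 (FDR 0.0023, lost without shRBM10#2 replicate 2 at an FDR of 0.0518). CXCL8, encoding the chemokine interleukin 8, was at 6.59 and 6.23 CPM in shScr, 2.24 and 2.58 CPM under shRBM10#1, and 7.11 and 6.13 CPM under shRBM10#2. It fell with shRBM10#1 (-1.41 ± 0.16, FDR 0.000136) and had a log2 FC of 0.047 (FDR 0.842) with shRBM10#2. CD44 (0.30, FDR 0.0101) and TIMP1 (0.38, FDR 0.00721) rose with shRBM10#2, calls lost without shScr replicate 1 or either shRBM10#2 library for CD44 and without shScr replicate 2 or shRBM10#2 replicate 1 for TIMP1. MMP9 rose with shRBM10#1 (0.78, FDR 0.0312), a call lost in 8 alternatives, among them each library left out. With shRBM10#2 the number of falls in this list was 1 to 6 when single libraries were left out, the lowest without shRBM10#2 replicate 2, and with shRBM10#1 it was 5 or 6.

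**Figure D5:**
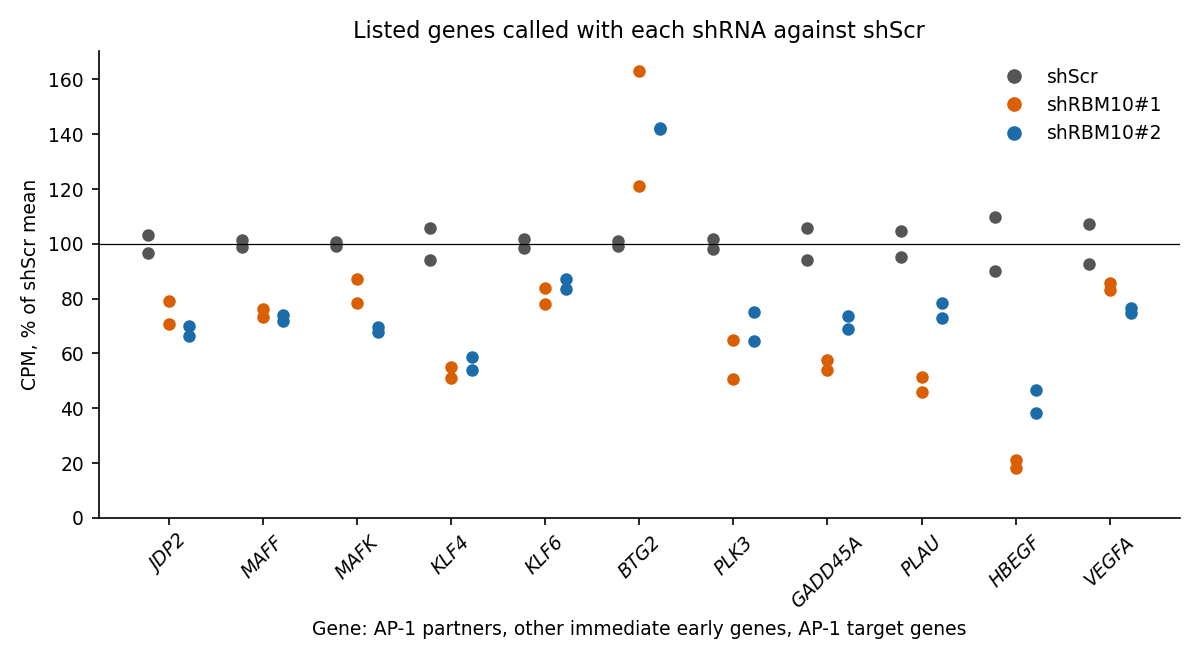
CPM of AP-1 partners, other immediate early genes and AP-1 target genes that were called with each shRNA, as a percent of the shScr mean, with 1 point per library. HBEGF shows the lowest points, with both shRBM10#1 libraries below both shRBM10#2 libraries, and BTG2 is the only gene whose KD points lie above the line at 100%.

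Of 13 tested kinases and factors upstream of the immediate early genes, 1 rose and 2 fell with shRBM10#1, where 7.13% of all genes rose and 6.91% fell. With shRBM10#2, 3 rose and 4 fell, where 12% of all genes rose and 13.9% fell. SRF, the serum response factor gene, had a log2 FC of -0.23 (FDR 0.0461, lost in 9 of 13 alternatives) and -0.34 (FDR 0.00465, lost without shRBM10#2 replicate 2 at an FDR of 0.0849). MAPK8, the gene of the JUN kinase JNK1, fell with shRBM10#1 (-0.53 ± 0.085, FDR 0.00126) and was at -0.081 (FDR 0.511) with shRBM10#2. MAPK7, encoding ERK5, fell with shRBM10#2 (-0.39, FDR 0.00386), and that call was lost without shRBM10#2 replicate 2 at an FDR of 0.0678. MAPK9, encoding JNK2, rose with shRBM10#2 (0.30, FDR 0.00584, lost without either shRBM10#2 library). Among the 5 EGR relatives and corepressors, NAB1, a corepressor of EGR proteins, rose with shRBM10#1 (0.29, FDR 0.0454, lost in 8 of 13 alternatives) and with shRBM10#2 (0.57 ± 0.086, FDR 0.00083).

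Of 11 tested genes of the MYC network, 1 rose and 1 fell with shRBM10#1, and 1 rose and 4 fell with shRBM10#2. Beside this count and those of the MYC target and heat shock genes, 7.13% of all genes rose and 6.91% fell with shRBM10#1, while 12% rose and 13.9% fell with shRBM10#2. MXD4, a relative of MXD1, rose with shRBM10#1 (0.39, FDR 0.0312, lost in 5 of 13 alternatives), and MLX rose (0.32, FDR 0.0101) and ZBTB17 fell (-0.33, FDR 0.0207) with shRBM10#2, both lost in 3. The MYC antagonist MXD1 fell by 0.53 (FDR 0.000418) and by 0.43 (FDR 0.00147) on the log2 scale, the second call reaching an FDR of 0.0505 without shRBM10#2 replicate 2. Of 20 MYC target genes, 1 rose and 1 fell with shRBM10#1, and 2 rose and 3 fell with shRBM10#2, with medians of -0.0038 and -0.029. ODC1, the polyamine synthesis gene, fell with shRBM10#1 (-0.39, FDR 0.0069). GNL3 rose with shRBM10#2 (0.42, FDR 0.00259) and FASN fell (-0.39, FDR 0.0026), both lost without shRBM10#2 replicate 2 (FDR 0.0723 and 0.0615). NOP16 rose with shRBM10#2 (0.42, FDR 0.00503) and BOP1 fell (-0.41, FDR 0.0111), and RRS1 rose with shRBM10#1 (0.32, FDR 0.0276). The NOP16 call was lost without shRBM10#2 replicate 1, the BOP1 call without either shRBM10#2 library or shScr replicate 2, and the RRS1 call in 6 of 13 alternatives. Of the 8 heat shock genes listed as a sign of stress, 2 rose and 1 fell with shRBM10#1, and none rose and 5 fell with shRBM10#2 (0 fell without shRBM10#2 replicate 2). HSPH1 fell with each shRNA (-0.30, FDR 0.0289, and -0.30, FDR 0.0183), calls lost without some of the libraries. HSPA1A had log2 FCs of 0.38 (FDR 0.00508) and -0.26 (FDR 0.0254), and HSPA1B of 0.29 (FDR 0.0192) and -0.35 (FDR 0.00483). The fall of HSPA1A was lost in 3 of 13 alternatives (FDR up to 0.344), the rise of HSPA1B in 4 (FDR up to 0.114) and its fall without shRBM10#2 replicate 2 (FDR 0.098). Reads of these near-identical copies cannot be fully assigned, and their part in the differences of JUNB and JUND was not tested.

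The genes whose log2 CPM most resembled the members with the widest range were named as a description over the 6 libraries, which share conditions and depth. They were picked for the highest r among all tested genes, so a high r follows from the picking. For ATF3 they were DOK3 (Pearson r = 0.999), CYSRT1 (r = 0.999) and HSPB8, a small heat shock protein gene (r = 0.997). DOK3 was scarce, at 0.543 to 1.11 CPM. HSPB8 was at 12.3 and 9.96 CPM in shScr, 5.34 and 5.21 CPM under shRBM10#1, and 7.97 and 7.70 CPM under shRBM10#2. For FOSB they were RNPS1, which encodes a splicing activator (r = 0.997), the clock gene CRY1 (r = 0.996) and IL1B (r = 0.992, at 0.480 to 1.37 CPM). For FOSL1 they were ADM2 (r = 0.998), the secreted glycoprotein gene STC2 (r = 0.995) and ATG16L1 (r = 0.995). STC2 was at 380 and 326 CPM in shScr, 185 and 156 CPM under shRBM10#1, and 213 and 201 CPM under shRBM10#2.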

How the data were processed

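Total RNA of 6 PC-9 libraries was sequenced with standard Illumina protocols. The submitters' processing notes name STAR 2.4, RSEM 1.2.29, edgeR and hg19, and the strand protocol was not given in the sources used here. The authors deposited RSEM expected counts per RefSeq isoform, which need not be whole, and TPM, scaled by effective length. Effective length was the authors' value and FPKM was not used.

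Expected counts were summed per gene, rounded, scaled by TMM and filtered with filterByExpr (14217 genes). They were tested with edgeR 4.0.16 quasi-likelihood functions in R 4.3.3, with 1 coefficient per condition over all libraries and Benjamini-Hochberg adjustment (two-sided; call at FDR below 0.05). Log2 FC is on this scale, and CPM is TMM-scaled. Isoform usage was tested with diffSpliceDGE. DESeq2 1.42.0 and limma 3.58.1 served as alternatives, beside DESeq2 size factors, other filters, a length offset, the replicate block and each library left out. Where that left 1 library in a condition, it was assumed to vary like the others. Python 3.11.15 was used for tables and figures. The procedure was tested on simulated counts with 200 changed genes and recovered 100% of 2-fold changes in each comparison with shScr. The changed genes were drawn from those above a floor on mean CPM that FOSB did not reach, so recovery at its level was not tested. Recovery of changes below 2-fold was not tested. Apart from ATF3 with shRBM10#1, every called fall of the 10 genes from shScr was below 2-fold.

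The members and the lists were chosen with earlier results of these data known. Named list genes were those called with both shRNAs and the 2 largest called rises and falls per shRNA, of which a selection is printed. A gene of the AP-1 target list is not reported here and was left out of that list's counts, median and figure. Replicate libraries were farther apart than counting error allows (chi-square per degree of freedom 3.24 to 12.47). Symbols were used as deposited. Promoter sequences are RefSeq (GRCh38.p14), with 8 members matched and MYC not reported there.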

Additional observations from a re-analysis of the deposited data

Results flagged for a closer look

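For 8 of the 10 genes the effect of shRBM10#1 and that of shRBM10#2 differed in a direct test between the shRNAs (edgeR quasi-likelihood, FDR below 0.05), where 14.5% of all tested genes were lower with shRBM10#2 and 11% higher. FOSB (log2 FC 1.03), ATF3 (0.84) and EGR1 (0.58) were higher with shRBM10#2, and JUNB (-0.66), JUND (-0.42), FOSL2 (-0.41), JUN (-0.27) and MYC (-0.22) were lower. Of these calls, those of FOSB and JUN were lost in 2 of 13 alternatives each, that of JUND in 1 and that of MYC in 5. RBM10 differed as well, by -1.11. Whether the depth of the RBM10 KD or effects of a single shRNA account for these differences was not tested, and with 1 line per shRNA they cannot be told apart.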

How the results depend on the processing

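Across 13 alternatives per comparison, the falls of FOSL1 and JUN with each shRNA, of ATF3 with shRBM10#1 and of FOSL2 with shRBM10#2 were called every time. The number of genes called with 1 library left out was 985 to 2626 with shRBM10#1, 954 to 4566 with shRBM10#2, 918 to 3736 between the shRNAs and 0 to 413 for the pooled KD, where 0 followed from leaving out either shScr library in edgeR (1383 and 1216 genes at an unadjusted p below 0.05). Of the 10 members, 3 to 7 were then called with shRBM10#2, 4 to 9 between the shRNAs and 0 to 2 for the pooled KD. The log2 FC changed sign over these fits for FOS with shRBM10#1 (-0.16 to 0.30) and between the shRNAs (-0.069 to 0.39), JUND (-0.013 to 0.19) and MYC (-0.058 to 0.14) with shRBM10#1, EGR1 with shRBM10#2 (-0.028 to 0.22), and JUNB (-0.20 to 0.11) and MYC (-0.16 to 0.038) in the pooled KD. None of these differences was called with all libraries, and FOS between the shRNAs was called without shRBM10#1 replicate 2 (FDR 0.0213). For the pooled KD, DESeq2 called 718 genes and 4 members, the mean of the shRNA coefficients called 2610 genes and 4 members, and no filter on low counts gave 2 members. The cause was not tested. Isoform usage was called for 5 to 39 genes with shRBM10#1 and 34 to 151 with shRBM10#2 when libraries were left out, for 42 and 571 with limma's diffSplice, and for 7 with shRBM10#1 when at least 10 counts were required in every library.

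The labels number the replicates alike in each condition. Over all tested genes, same-numbered libraries did not deviate together (correlations of -0.0038, -0.019 and -0.014). Whether they shared a preparation, or a batch that acted on some genes, was not tested. Under a replicate block, the pooled KD called 52 genes and 0 members (4 at an unadjusted p below 0.05), with FOSL1 at an FDR of 0.0678 (edgeR), and isoform usage 4 genes with shRBM10#1 and 83 with shRBM10#2. The block also ended the calls of FOSB with shRBM10#1 (FDR 0.0535) and of MYC between the shRNAs (FDR 0.0572), and no other call among the 10 genes. Depth limits FOSB most, with 30 to 74 expected counts per library.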

Other observations

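HOOK2 was looked up because a GENCODE 29 transcript of it shares 259 exon bases with JUNB on the opposite strand, and it was named after its values were seen. Its log2 FC was 0.23 ± 0.061 (FDR 0.025) with shRBM10#1, -0.39 ± 0.061 (FDR 0.000928) with shRBM10#2 and -0.62 ± 0.061 (FDR 8.77e-05) between the shRNAs, beside 0.25, -0.41 and -0.66 for JUNB. The 2 deposited HOOK2 isoforms share 0 exon bases with JUNB and end 15876 bases from it, so that overlap was not in the annotation counted here. Whether reads of the overlapping transcript were counted to JUNB was not tested, and the strand protocol was not given.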
